A study of Mus musculus with 2 samples.

Results

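Mir199a-1, Mir199a-2, Mir199b and Mir214 are 4 microRNA (miRNA) genes known for their activity in mesenchymal cells, such as fibroblasts and the cells of developing skeleton and connective tissue. They were taken by gene symbol from the 2202 miRNA genes counted in small RNA libraries of mouse adrenal gland, and all 4 were found. The mice were B6CASTF1/J females, the F1 cross of the strains C57BL/6J and CAST/EiJ, aged 18 to 20 months. The only group holds 2 biological replicates, here replicate 1 and replicate 2, made from total RNA of separate tissue samples that the labels place under the same donor record. No treatment, other age or other tissue enters, so the data give the level of each gene in this tissue and the difference between its libraries. Reads counted in miRNA genes on the gene's own strand numbered 2590051 in replicate 1 and 2291030 in replicate 2.

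A miRNA gene is transcribed into a hairpin, from which a short mature strand is cut out of either arm, called 5p and 3p. The seed, bases 2 to 8 of the mature strand, does most of the pairing with target messenger RNAs. Mir199a-2 and Mir214 lie in Dnm3os, a long noncoding RNA transcribed from the opposite strand of the dynamin gene Dnm3. Dnm3os is needed for normal skeletal growth in mice, and the transcription factor Twist1 is known to drive it. In mouse muscle cells miR-214 is known to repress Ezh2, a histone methyltransferase, and the miR-199 and miR-214 genes have been studied in fibrosis of several organs. The other miR-199 genes lie opposite paralogs of Dnm3.

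Positions are on mm10 with the GENCODE M21 annotation. Mir214 (ENSMUSG00000065516.1) lies at chr1:162223368-162223477 on the plus strand, in an exon of Dnm3os and opposite an intron of Dnm3. Mir199a-2 (ENSMUSG00000070126.1) lies at chr1:162217814-162217923 on the plus strand, in an exon of Dnm3os, with 5444 bases between it and Mir214. Mir199a-1 (ENSMUSG00000065547.1) lies at chr9:21496495-21496564 on the minus strand, opposite an intron of Dnm2. Mir199b (ENSMUSG00000092807.1) lies at chr2:32318460-32318569 on the plus strand, opposite an intron of Dnm1. Within 20 kb of a member, the only other miRNA gene was Gm23363, 116 bases from Mir199b, with 0 counts in both libraries.

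The hairpins are shown because what they share decides which reads can be assigned to 1 gene. Capitals mark the mature arms in the RefSeq table (GRCm38.p6, the assembly of mm10) and, in Mir199b, also the stretch that aligns with miR-199a-5p. All 4 members matched that table, and the hairpins were identical to those of GENCODE M21.
Mir214: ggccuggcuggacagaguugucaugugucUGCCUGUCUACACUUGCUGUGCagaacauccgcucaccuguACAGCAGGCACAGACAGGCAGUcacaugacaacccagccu
Mir199a-2: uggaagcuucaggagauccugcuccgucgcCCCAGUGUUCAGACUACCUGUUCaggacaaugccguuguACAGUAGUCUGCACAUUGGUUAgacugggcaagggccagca
Mir199a-1: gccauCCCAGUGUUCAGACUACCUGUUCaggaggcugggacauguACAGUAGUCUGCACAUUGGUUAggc
Mir199b: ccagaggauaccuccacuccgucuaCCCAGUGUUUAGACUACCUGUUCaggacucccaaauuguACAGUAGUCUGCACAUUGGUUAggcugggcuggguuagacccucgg

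The mature strands fall into 4 seeds, marked by capitals here.
miR-214-5p: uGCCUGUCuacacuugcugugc
miR-214-3p: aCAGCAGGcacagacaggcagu
miR-199a-5p: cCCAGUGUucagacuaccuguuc
Mir199b 5' stretch: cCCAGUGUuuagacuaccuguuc
miR-199a-3p and miR-199b-3p: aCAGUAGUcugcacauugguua

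The 3 Mir199 genes encode the same 3p strand, so a read of exactly these 22 bases occurs in 3 hairpins and belongs to no single gene. The 23 bases of miR-199a-5p occur in the hairpins of both Mir199a-1 and Mir199a-2. The Mir199b 5' stretch was found in Mir199b alone, and it differs from miR-199a-5p by a single substitution, C10U, counted from 1 at the 5' end and outside the seed. Both arms of Mir214 occur in 1 hairpin only, and the longest run that Mir214 shares with the hairpin of any other miRNA gene was 13 bases. Over the first 8 bases, miR-214-3p differs from miR-199a-3p by U5C and U8G, so their seeds are distinct. The seed of miR-214-3p is also that of miR-761, and Mir761 on chromosome 4 had 0 counts in both libraries. The other seeds occur in no miRNA outside the members among 1679 mature names in the RefSeq table.

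**Figure D1:**
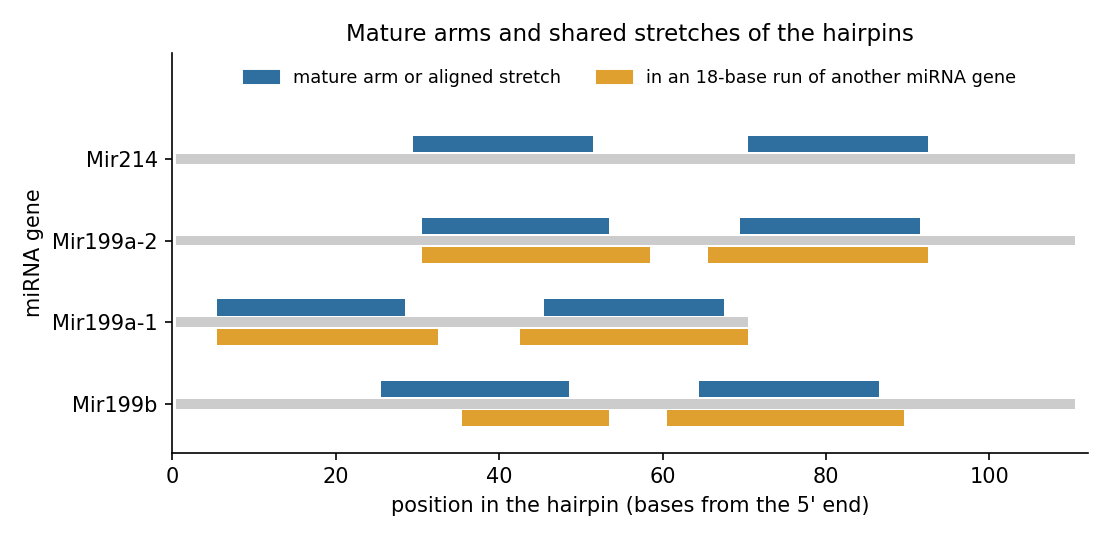
Hairpins of the 4 members, with position in bases from the 5' end along the horizontal axis and a row for each gene. Blue bars mark mature arms (in Mir199b also the stretch aligned with miR-199a-5p), and orange bars mark bases inside an 18-base run that is also present in the hairpin of another miRNA gene. Mir214 has no orange bar, while both arms of Mir199a-2 and Mir199a-1 are covered.

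The arms of the Mir199a genes can be told apart only by the bases beside them. A read of miR-199a-5p is found in 1 gene only if it starts at least 1 base earlier or runs at least 5 bases further, in Mir199a-2 as in Mir199a-1. A read of the 3p strand has to run 2 bases further in Mir199a-2 and 4 in Mir199b, or start 5 bases earlier in these and 4 in Mir199a-1. These lengths compare annotated hairpins only. The Mir199a-1 hairpin of 70 bases ends soon after its 3p arm, which stops at base 67. The 4 bases in Mir199b mark that end and not a known difference of sequence in the genome. Over all 18-base windows of a hairpin, 0 of 93 were shared in Mir214, 21 of 93 in Mir199a-2, 21 of 53 in Mir199a-1 and 13 of 93 in Mir199b. The gene counts leave out reads with several alignments, which numbered 2357429 in replicate 1 and 1958627 in replicate 2. The settings for several alignments and for mismatches are not stated. How reads were split between Mir199b and the Mir199a genes, a single base apart in the 5p arm, is therefore unknown. How many reads with several alignments are miR-199 reads was not tested here, so the counts of the Mir199 genes are no measure of how much miR-199 the gland holds.

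Mir214 had by far the most assigned counts of the members. It had 7200 counts in replicate 1 and 933 in replicate 2, which is 2779.9 counts per 1000000 own-strand counts (CPM; Wilson 95% interval 2716 to 2845) and 407 CPM (382 to 434). Replicate 1 was the high library. The mean was 1594 ± 1678 CPM (SD, n = 2), an SD larger than the mean, and the gene ranked 64 of 2202 by mean CPM, at 47 in replicate 1 and 114 in replicate 2.

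The Mir199 genes had few counts, which leave out reads with several alignments. Mir199a-2, from the same Dnm3os transcript as Mir214, had 36 counts in replicate 1 and 2 in replicate 2, or 13.9 CPM (10 to 19.2) and 0.873 CPM (0.239 to 3.18). Mir199b had 29 and 12 counts in replicates 1 and 2, or 11.2 CPM (7.80 to 16.1) and 5.24 CPM (3.00 to 9.16). Mir199a-1 had 2 counts in replicate 1 and 0 in replicate 2, where the Wilson interval reaches 1.68 CPM and the limit of 3 counts is 1.31 CPM. Its assigned level could thus not be set apart from 0. Both of its arms also occur in other hairpins, so this does not show that its mature strands are missing.

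The order of mean levels was Mir214, Mir199b at 8.22 ± 4.21 CPM, Mir199a-2 at 7.39 ± 9.21 CPM and Mir199a-1 at 0.386 ± 0.546 CPM (SD, n = 2 each). These levels are per gene, and mature strands of 22 or 23 bases make them near equal per length. In replicate 1 the intervals of Mir199a-2 and Mir199b overlap, and the order of these genes was reversed between the libraries. At least 10 counts in each library, the limit used for detection, were reached by 2 members, Mir214 and Mir199b, and by 339 miRNA genes in all. The median of those 339 was 134 CPM, below Mir214 and above the Mir199 genes. Of the 1120 genes that share an 18-base run with a miRNA gene elsewhere, 7.77% were detected, against 23.3% of the 1082 genes that share none.

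**Figure D2:**
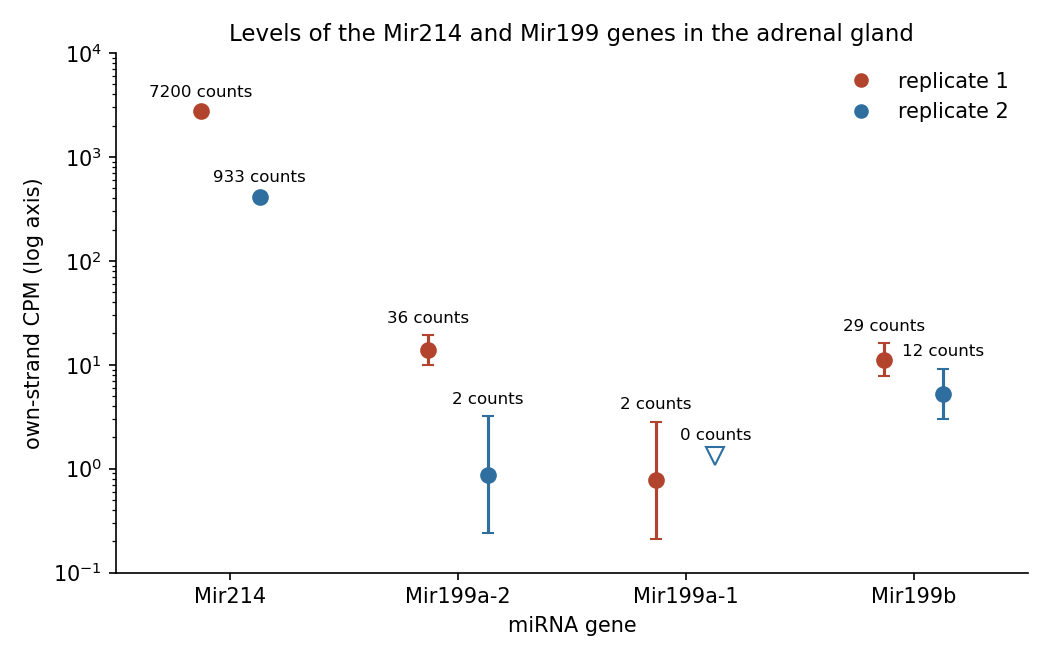
Own-strand CPM of each member on a log axis, replicate 1 left of replicate 2, with Wilson 95% intervals (smaller than the point for Mir214). The open triangle marks 0 counts in replicate 2, drawn at the limit of 3 counts (1.31 CPM), while the Wilson interval reaches 1.68 CPM. Mir214 lies far above the Mir199 genes in both libraries, where counts leave out reads with several alignments. Replicate 1 lies above replicate 2 for Mir214, Mir199a-2 and Mir199b.

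The 3 members with enough counts to be tested were all higher in replicate 1. Mir199a-2 (36 and 2 counts) and Mir199b (29 and 12) reached 20 counts, the limit for testing, in replicate 1 alone. Mir214 (7200 and 933) reached it in each library. Reads were compared per gene by an exact conditional binomial test, two-sided, on the counts, with edgeR's TMM scaling and Benjamini-Hochberg adjustment over the 367 miRNA genes with a summed count of at least 20. The test sets 2 libraries of 1 group against each other with counting error only. Of those 367 genes, 62.7% passed at an adjusted p of 0.05 in either direction and 32.4% passed as higher in replicate 1, so a call alone is common here. Mir199a-1, with 2 counts in all, was not tested.

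Mir214 was 6.65-fold higher in replicate 1, a log2 ratio of 2.73 (95% interval 2.64 to 2.83), with an adjusted p below 1e-300, the limit set for printing. Among the 367 genes, 11 had a larger absolute log2 ratio than Mir214. Among the 64 tested genes at or above the mean level of Mir214 there was none, and the next was Mir99b, lower in replicate 1 with 8762 counts against 20811 in replicate 2 (log2 ratio -1.46). The median absolute log2 ratio of all tested genes was 0.46.

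Mir199a-2 had a log2 ratio of 3.65 (2.00 to 7.06) and an adjusted p of 1.48e-07 (exact test). Its size is loosely set, since replicate 2 gave 2 counts, and raising the prior count from 0.5 to 5 gave a ratio of 2.34. Mir199b had a log2 ratio of 1.02 (0.04 to 2.16) and an adjusted p of 0.0470 (exact test), next to the threshold. Without the filter on low counts, which raises the number of tests to 724, its adjusted p was 0.0869 and the call was lost. With the additional demand of a 2-fold difference, 10.6% of tested genes passed as higher in replicate 1, and the 3 members were among them, Mir199b only just at 2.03-fold. At a prior count of 5 its log2 ratio was 0.79, under 2-fold.

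**Figure D3:**
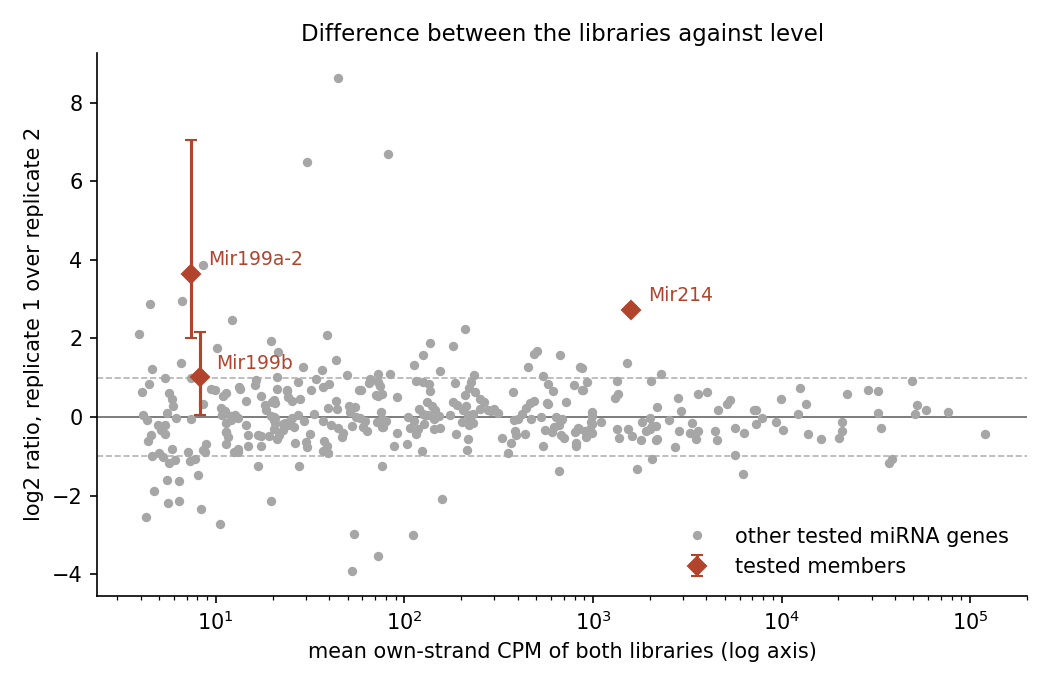
Log2 ratio of replicate 1 over replicate 2 against mean CPM on a log axis for the 367 tested miRNA genes, with dashed lines at 2-fold. Diamonds with exact 95% intervals are the 3 tested members, at 2.73 for Mir214, 3.65 for Mir199a-2 and 1.02 for Mir199b. Mir214 stands above every gene at or beyond its level.

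The ratio between members can be read without any scaling of the libraries. For each count of Mir199a-2 there were 200 counts of Mir214 in replicate 1 (exact 95% interval 144 to 286) and 466 in replicate 2 (129 to 3858). The odds ratio of replicate 1 over replicate 2 was 0.429 with an exact interval of 0.0499 to 1.67, which includes 1, so no difference between the Dnm3os partners was detectable at this depth. For each count of Mir199b there were 248 counts of Mir214 in replicate 1 (173 to 371) and 77.8 in replicate 2 (44.3 to 151). This odds ratio was 3.19, with an interval of 1.48 to 6.48 that leaves out 1. Mir199a-2 against Mir199b gave an odds ratio of 7.28 (1.45 to 72.1). In assigned counts, the difference between the libraries was thus larger for the genes on chromosome 1 than for Mir199b on chromosome 2, beyond counting error. Mir199a-2 rests on 36 and 2 counts and Mir199b on 29 and 12, and the split of reads between them is unknown. Differences beyond counting error are common here, as 62.7% of the 367 tested genes passed in the exact test. The other 3 of the 6 pairs involve Mir199a-1 and its 2 counts, and their intervals include 1. Intervals were not adjusted for the number of pairs.

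Mir199a-2 and Mir214 lie in the Dnm3os transcript, whose promoter is shown as a window of 300 bases around its start (RefSeq, GRCm38.p6, chr1:162217373-162217672, plus strand). Capitals mark the motif CANNTG, the E-box bound by Twist1 and many related factors.
Dnm3os promoter: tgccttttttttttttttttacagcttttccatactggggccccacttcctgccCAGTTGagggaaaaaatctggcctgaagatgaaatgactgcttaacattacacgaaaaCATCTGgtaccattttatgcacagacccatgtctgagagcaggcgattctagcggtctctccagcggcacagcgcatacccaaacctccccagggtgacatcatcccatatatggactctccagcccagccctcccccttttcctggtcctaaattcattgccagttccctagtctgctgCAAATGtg
The motif occurs 3 times and reads the same pattern on both strands. Of 32851 promoter windows of this length, 72.3% hold it at least once and 17.6% hold it 3 times or more. A match describes letters and does not show binding, which was not tested. Whether transcription of Dnm3os differed between the libraries was not tested either.

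The other mesenchymal and smooth muscle miRNAs did not move one way. In bulk tissue, fewer cells of a type and less RNA per cell cannot be told apart. The 17 listed genes, members left out, summed to 13.9% of counts in replicate 1 and 12.2% in replicate 2. Of the 16 tested, 8 passed as higher and 5 as lower in replicate 1, where 32.4% and 30.2% of all tested genes did, and 3 did not pass. Their median log2 ratio was 0.14, against -0.02 over all tested genes, and their range was -1.07 to 2.24. The most abundant were Mir10a at -0.28, Mir21a at 0.69 and Mir143, a smooth muscle miRNA, at 0.59. Its cluster partner Mir145a, named after its values were seen, went the other way, with 3496 counts in replicate 1 and 6335 in replicate 2 (-1.07). The widest ratios were those of Mir152, with 901 counts in replicate 1 and 164 in replicate 2 (2.24), and Mir100, with 8181 and 3279 (1.10).

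Markers of other cell types also differed between the libraries, and their part in the Mir214 difference was not tested. Over all tested genes, 32.4% passed as higher and 30.2% as lower in replicate 1. Striated muscle miRNAs summed to 598 CPM in replicate 1 and 81.2 CPM in replicate 2, and 4 of 4 tested genes passed as higher in replicate 1. Their median log2 ratio was 6.60, or 6.28 with Mir208a, which had 231 and 0 counts, set at the limit of 3 counts. Mir208a, Mir208b (157 and 1 counts) and Mir499 reached the summed count of 20, the limit for testing, through replicate 1 alone. The tally and the median rest mainly on these genes, while Mir206 had a log2 ratio of 1.80. Of the 9 listed, Mir1a-1, Mir133a-1, Mir133a-2 and Mir133b had 0 counts in both libraries. All 4 share an 18-base run with another miRNA gene, so these zeros do not show that their mature strands are missing. Mir206, found in skeletal muscle, had 737 and 182 counts, and Mir499, from the myosin gene Myh7b, had 420 and 3. The endothelial list summed to 64764 and 33414 CPM with 2 of 2 higher in replicate 1, and nearly all of that sum was Mir126a, at 64752 and 33412 CPM. Mir126b, with 31 and 3 counts, reached the summed count of 20 through replicate 1 alone. The erythroid list summed to 902 and 490.2 CPM with 2 of 3 higher and 0 lower.

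The remaining lists ranged from lower to slightly higher in replicate 1, beside the same 32.4% higher and 30.2% lower over all tested genes. Epithelial miRNAs summed to 1192 CPM in replicate 1 and 1871 CPM in replicate 2, with 0 of 5 tested genes higher and 4 lower. Most of that sum was Mir203, at 1147 and 1618 CPM (log2 ratio -0.53), while the median log2 ratio of the list was -2.13. Mir141, with 6 and 24 counts in replicates 1 and 2, and Mir200b, with 19 and 73, reached 20 counts in replicate 2 alone. Leukocyte miRNAs summed to 3045 and 2955 CPM, with 1 of 6 higher and 1 lower. Mir142b of this list had 0 counts in both libraries and shares no 18-base run with a miRNA gene elsewhere. Adrenal medulla and neuroendocrine miRNAs summed to 66762 and 57142 CPM, with 5 of 7 higher and 0 lower. Most of that sum was Mir375, at 62443 and 54040.3 CPM. Mir124a-1, Mir124a-2, Mir124a-3 and Mir9-2 of this list, which all share such a run, had 0 counts in both libraries.

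**Figure D4:**
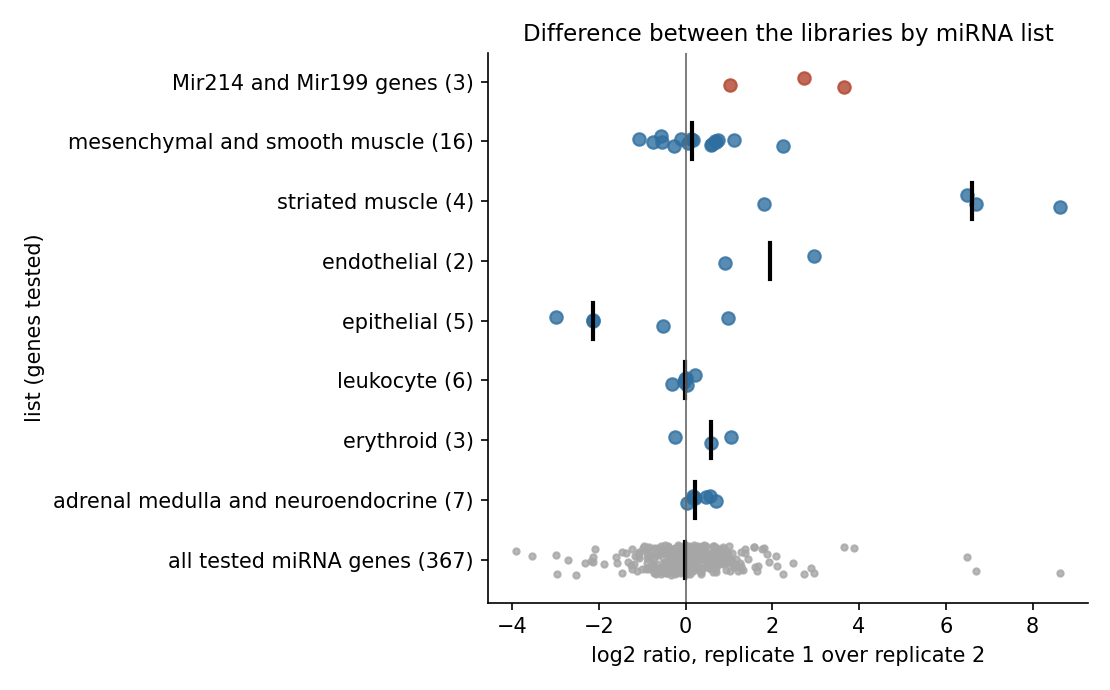
Log2 ratio of replicate 1 over replicate 2 for each tested gene, by list, with the number tested in brackets and black lines at list medians. The vertical scatter carries no value. The 3 members lie between 1.02 and 3.65, the mesenchymal and smooth muscle genes between -1.07 and 2.24, and the rightmost point, Mir208a, was fitted against 0 counts.

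With 2 libraries, likeness in pattern is a single ratio. Of 228 other genes with a summed count of at least 200, those nearest to Mir214 in log2 ratio were Mir152 (2.24), Mir6236 (1.88), Mir206 (1.80), Mir101b (1.68) and Mir222 (1.60). All of these are below Mir214, by 0.49 to 1.13. Nearest to Mir199b were the erythroid Mir451a (1.05), Mir338 (1.06), Mir495 (1.06), Mir665 (0.97) and Mir187 (1.10).

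Reads on the opposite strand of the members were almost absent, at 2 counts for Mir214 in replicate 1 and 0 in replicate 2. The Mir199 genes had 0 in both libraries. Ignoring strand gave 7202 and 933 counts for Mir214 and left the counts of the Mir199 genes as they were.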

How the data were processed

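Small RNA libraries (labelled size range under 30) of 2 replicates were analysed. The deposited tables hold raw counts per miRNA gene with strand ignored, on the own strand and on the opposite strand. The build was mm10 with GENCODE M21, per the deposited notes. The aligner, counter and trimming were not given in the sources used here. mm10 is C57BL/6J sequence, and reads lost at CAST/EiJ alleles were not tested for. The strand columns were read from the values. Unmapped, several-place, no-gene and ambiguous reads stayed outside library sizes. Several-place reads were 24.0% of reads in replicate 1 and 28.0% in replicate 2.

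All 2202 gene IDs matched GENCODE M21. CPM used own-strand totals. edgeR 4.0.16 TMM factors, over genes with a summed count of at least 20, were 1.01 and 0.987. An edgeR quasi-likelihood contrast needs a second group, so an exact conditional binomial test (scipy 1.17.1) was used. It was run on simulated counts with counting error only, as the test assumes. That run checks the code and not the error rate in real libraries. Log2 ratios put replicate 1 over replicate 2, using 0.5 as prior count. Intervals and the limit of 3 counts cover counting error only. edgeR's common dispersion gave a biological coefficient of variation of 0.432. PCR copies are not independent molecules, and nothing says the samples came from separate animals, so spread may be technical. Alternatives were DESeq2 1.42.0 size factors, totals, other filters and prior counts, and strand ignored.

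Members, lists and tests were chosen with earlier results of these data known. Named genes are the members, genes sharing a seed or lying within 20 kb, the 3 most abundant and 2 widest-ratio genes of a list (for lists of other cell types only where a value is needed beside a result), and the 5 nearest in ratio to Mir214 and Mir199b. Mir208b, Mir141 and listed genes with 0 counts are named beside these.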

Additional observations from a re-analysis of the deposited data

Results flagged for a closer look

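Reads that align to several places lie outside the gene counts, at 2357429 in replicate 1 and 1958627 in replicate 2. They amount to 0.910 and 0.855 for each read counted in a miRNA gene, but they need not come from miRNA genes themselves. Reads of the miR-199 strands shared by several genes would fall among them. Their makeup was not tested.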

How the results depend on the processing

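The direction of the 3 tested members held under every alternative run: DESeq2 size factors, library totals, a prior count of 5, strand ignored, other filters, and TMM factors over all genes, the last chosen after seeing the data. Log2 ratios ranged from 2.73 to 2.87 for Mir214, 2.34 to 3.79 for Mir199a-2 and 0.79 to 1.16 for Mir199b. TMM over all genes moved the median of all tested genes by 0.13. Mir199b lost its call without the filter on low counts (log2 ratio 1.02, adjusted p 0.0869, exact test), where 724 genes are tested in place of 367, and its adjusted p ranged from 0.0305 to 0.0869. At a summed count of at least 200 only 1 member could be tested, and 1 was called. At least 50 counts in each library were reached by 1 member in place of 2. Per 1000000 reads of all classes in the table, Mir214 was at 434, Mir199a-2 at 1.98, Mir199a-1 at 0.102 and Mir199b at 2.34, where the larger total sets the lower values. Demanding 2-fold left 65 of the 230 miRNAs called. With either library left out, levels ranged from 407 to 2779.9 CPM for Mir214, 0.873 to 13.9 for Mir199a-2, 0 to 0.772 for Mir199a-1 and 5.24 to 11.2 for Mir199b. Mir199a-1 has no ratio, since both counts are within the limit of 3. No paired analysis was possible because there is 1 group. The Mir199 genes had at most 36 counts, which leaves wide counting intervals.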
